A study of Homo sapiens with 12 samples.

Results

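Interferon-stimulated genes were described in 2 human ovarian cancer cell lines given the kinase inhibitor lestaurtinib. The list held 53 genes known to be switched on by interferon, and a gene was included when its symbol was in the list and it had a row in the authors' deposited gene table. Of the 53 genes, 42 had a row, and all 42 passed the filter on low counts, among 13498 genes tested of 13869 in the table. CMPK2, EPSTI1, IFI44, IFI44L, MX2, OAS2, RSAD2, SAMD9L, TRIM22, XAF1 and ZBP1 had no row and were not analysed here. Every gene in the table had an RPKM (reads scaled by exon length and library size) above 1 in at least 1 library, so the 42 genes are those that reached this level somewhere and do not stand for the whole list. Measured against the same level line by line, 35 of the 42 genes passed it in both lines, 2 only in OVSAHO and 5 only in MDAH-2774.

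The 4 groups were OVSAHO cells with 500 nM lestaurtinib, OVSAHO cells with DMSO vehicle, MDAH-2774 cells with 500 nM lestaurtinib and MDAH-2774 cells with DMSO vehicle, with 3 RNA sequencing libraries each and 24 h of treatment in all of them. The labels give OVSAHO as a high grade serous and MDAH-2774 as an endometrioid ovarian cancer line, both with genotype WT, both grown in phenol red free RPMI with serum and an antibiotic and antimycotic. Lestaurtinib is an indolocarbazole that blocks several kinases, among them JAK2 and FLT3. Interferon itself was not part of any treatment in the labels, so the values are those of cells that were not deliberately stimulated. Each line is 1 model of its tumour type, and no label ties the 3 libraries of a group to separate cultures. The p-values therefore cover variation among libraries, possibly technical.

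Interferons bind receptors on the cell surface, and the receptors activate the Janus kinases JAK1, JAK2 and TYK2, which phosphorylate STAT proteins. Type I interferons act through a complex that includes STAT2 and IRF9 and binds the interferon-stimulated response element (ISRE) in promoters, while type II interferon acts through the gamma-activated sequence (GAS). The genes switched on in this way sense foreign RNA, block viral entry and translation, and attach the small protein ISG15 to other proteins. Many cultured cells keep a basal level of some of these genes without added interferon.

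Libraries held between 32875940 and 55941446 counts, and the biological coefficient of variation over all genes was 0.125. Of the epithelial ovarian markers, 7 of 8 were in the table, all but MUC16, and their summed level was 2715 to 2888 CPM (counts scaled to library size with TMM) in treated and 1735 to 1925 CPM in vehicle OVSAHO cells, and 1816 to 1866 CPM in treated and 2031 to 2247 CPM in vehicle MDAH-2774 cells. Within the sum, KRT8, KRT18 and KRT7 rose in OVSAHO (log2 fold changes 0.70, 1.08 and 0.79). PAX8 and WT1 fell there (-0.22 and -0.53, edgeR adjusted p under 0.05 for each). In MDAH-2774 KRT7 and CDH1 rose (0.46 and 0.39), and KRT8, KRT18, PAX8 and WT1 fell (-0.22, -0.16, -0.73 and -0.30) at the same threshold. None of the 3 markers of plasmacytoid dendritic cells, a major source of interferon in tissues, had a row, nor did 5 of 6 leukocyte markers, 5 of 7 fibroblast markers or 2 of 3 endothelial markers. The leukocyte marker with a row was CD68, which averaged 10.6 ± 1.86 CPM in treated and 14.7 ± 0.54 CPM in vehicle OVSAHO cells, and 9.55 ± 0.86 CPM in treated and 26.3 ± 2.60 CPM in vehicle MDAH-2774 cells (SD, n = 3 each). The endothelial marker with a row was CDH5, at 1.56 ± 0.39 CPM in treated and 0.13 ± 0.17 CPM in vehicle OVSAHO cells, and 12.9 ± 1.52 CPM in treated and 1.62 ± 0.30 CPM in vehicle MDAH-2774 cells. The fibroblast markers with a row were COL1A1 and ACTA2. COL1A1 had 0.95 ± 0.32 CPM in treated and 0.68 ± 0.10 CPM in vehicle OVSAHO cells, and 6.05 ± 0.31 and 4.41 ± 1.24 CPM in MDAH-2774 cells. ACTA2 had 0.18 ± 0.32 and 0.40 ± 0.54 CPM in OVSAHO, and 1.71 ± 0.45 and 1.13 ± 0.49 CPM in MDAH-2774, in the same order. CD68 and CDH5 move with treatment in both lines, and their part in the results was not tested.

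Matches to the promoter elements that carry the interferon signal are shown for genes that the results turn on. Promoters came from RefSeq on GRCh38.p14, from 250 bases before to 50 bases after a transcript start, and 34 of the 42 genes matched. The ISRE core was searched as GAAANNGAAA and the GAS as TTCNNNGAA on both strands, and the 2 motifs can overlap. The stretches are given 5′ to 3′ on the strand of the gene with the match in capitals, and a match on the other strand reads as the reverse complement. Only the motif named for a stretch is in capitals, and the stretches of BST2, IFITM1, MX1 and PARP14 also hold a GAS. Other matches of a promoter, among them another OAS3 core, are not all printed.
IFIT1, chr10:89392487-89392549, plus strand, ISRE core: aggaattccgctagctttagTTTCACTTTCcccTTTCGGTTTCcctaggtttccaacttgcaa
IFIT3, chr10:89327821-89327904, plus strand, ISRE core: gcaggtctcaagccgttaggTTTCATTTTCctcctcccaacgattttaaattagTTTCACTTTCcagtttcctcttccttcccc
IFITM1, chr11:313980-314043, plus strand, ISRE core: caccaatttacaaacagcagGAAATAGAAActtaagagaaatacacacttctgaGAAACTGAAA
IFITM3, chr11:320866-320932, minus strand, ISRE core: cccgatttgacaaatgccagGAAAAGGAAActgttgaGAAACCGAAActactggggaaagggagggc
MX1, chr21:41431834-41431883, plus strand, ISRE core: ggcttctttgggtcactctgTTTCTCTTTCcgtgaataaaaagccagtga
PARP14, chr3:122680790-122680838, plus strand, ISRE core: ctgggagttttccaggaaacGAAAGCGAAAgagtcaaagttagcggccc
PARP9, chr3:122564312-122564361, minus strand, ISRE core: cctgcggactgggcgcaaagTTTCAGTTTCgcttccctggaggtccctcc
DTX3L, chr3:122564312-122564341, plus strand, ISRE core: ggagggacctccagggaagcGAAACTGAAA
ISG20, chr15:88638927-88638976, plus strand, ISRE core: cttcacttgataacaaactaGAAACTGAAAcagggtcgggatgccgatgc
ISG15, chr1:1013364-1013419, plus strand, ISRE core: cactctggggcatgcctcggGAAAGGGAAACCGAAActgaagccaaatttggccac
BST2, chr19:17405725-17405780, minus strand, ISRE core: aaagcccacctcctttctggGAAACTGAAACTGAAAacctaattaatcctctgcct
OAS3, chr12:112938311-112938360, plus strand, ISRE core: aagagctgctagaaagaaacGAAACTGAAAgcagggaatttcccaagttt
IRF1, chr5:132490869-132490917, minus strand, GAS: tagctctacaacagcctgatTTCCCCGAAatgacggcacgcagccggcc
IRF9, chr14:24161182-24161230, plus strand, GAS: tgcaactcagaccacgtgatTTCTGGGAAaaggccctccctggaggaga
The ISRE core was found in 25 of the 34 matched genes (73.5%), against 3.72% of 10663 tested genes with a promoter in the tables and 4.38% of all 27305 genes there. The GAS was found in 12 of the 34 genes (35.3%), against 8.39% of the tested genes and 9.38% of all genes. PARP9 and DTX3L are transcribed away from each other, and 1 ISRE core at chr3:122564332-122564341 lies in the promoters of both. IFIT2 had no match in the promoter tables. MX1 had more than 1 start there, and the stretch shown lies before a start inside the gene. At its first start, with the window chr21:41420308-41420607, the ISRE core lay after the start and is not printed. The MX1 window chr21:41425989-41426288 held no ISRE core. A match describes letters in the reference and not a site bound in these cells.

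In OVSAHO cells, 16 of the 42 genes fell with lestaurtinib, 2 rose and 24 did not pass the threshold (edgeR quasi-likelihood test, Benjamini-Hochberg adjusted p under 0.05 over all 13498 genes). That is 38.1% of the genes lower, where 6.54% of all tested genes were lower, and 4.76% higher, where 9.19% of all tested genes were higher. In either direction 15.7% of all tested genes passed. The median log2 fold change of the 42 genes was -0.39, beside 0 over all genes tested. The genes that fell were IRF1, DDX60, IFIT1, IFIT2, IFIT3, IFITM1, IFITM3, MX1, HERC5, USP18, DTX3L, PARP9, PARP14, SP100, SP110 and SAMD9, and those that rose were ISG20 and OAS1. The treated libraries lay below the vehicle libraries without overlap for 18 of the 42 genes and above them for 2, where 15% of all tested genes were below and 15.5% above. In bulk RNA, fewer cells of a kind and less RNA per cell cannot be told apart.

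In MDAH-2774 cells the same dose and time gave 2 genes that fell, IRF1 and IRF9, among 9.05% of all tested genes lower, and no gene that rose, among 8.08% higher and 17.1% in either direction (edgeR). At an unadjusted p under 0.05, edgeR had 4 of the 42 genes higher and 4 lower. DESeq2 called 1 higher and 2 lower, and limma-voom called 2 higher and 4 lower. The shares over all tested genes given here are for edgeR at the adjusted threshold. The counts at unadjusted p and with the other tools have no such share beside them and say nothing about these genes in particular. The median log2 fold change of the 42 genes was -0.04, beside 0.01 over all genes tested. Treated libraries lay above the vehicle libraries without overlap for 5 genes and below them for 10, where 19.8% of all tested genes were above and 18.9% below. IRF1 was the gene that fell in both lines.

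**Figure D1:**
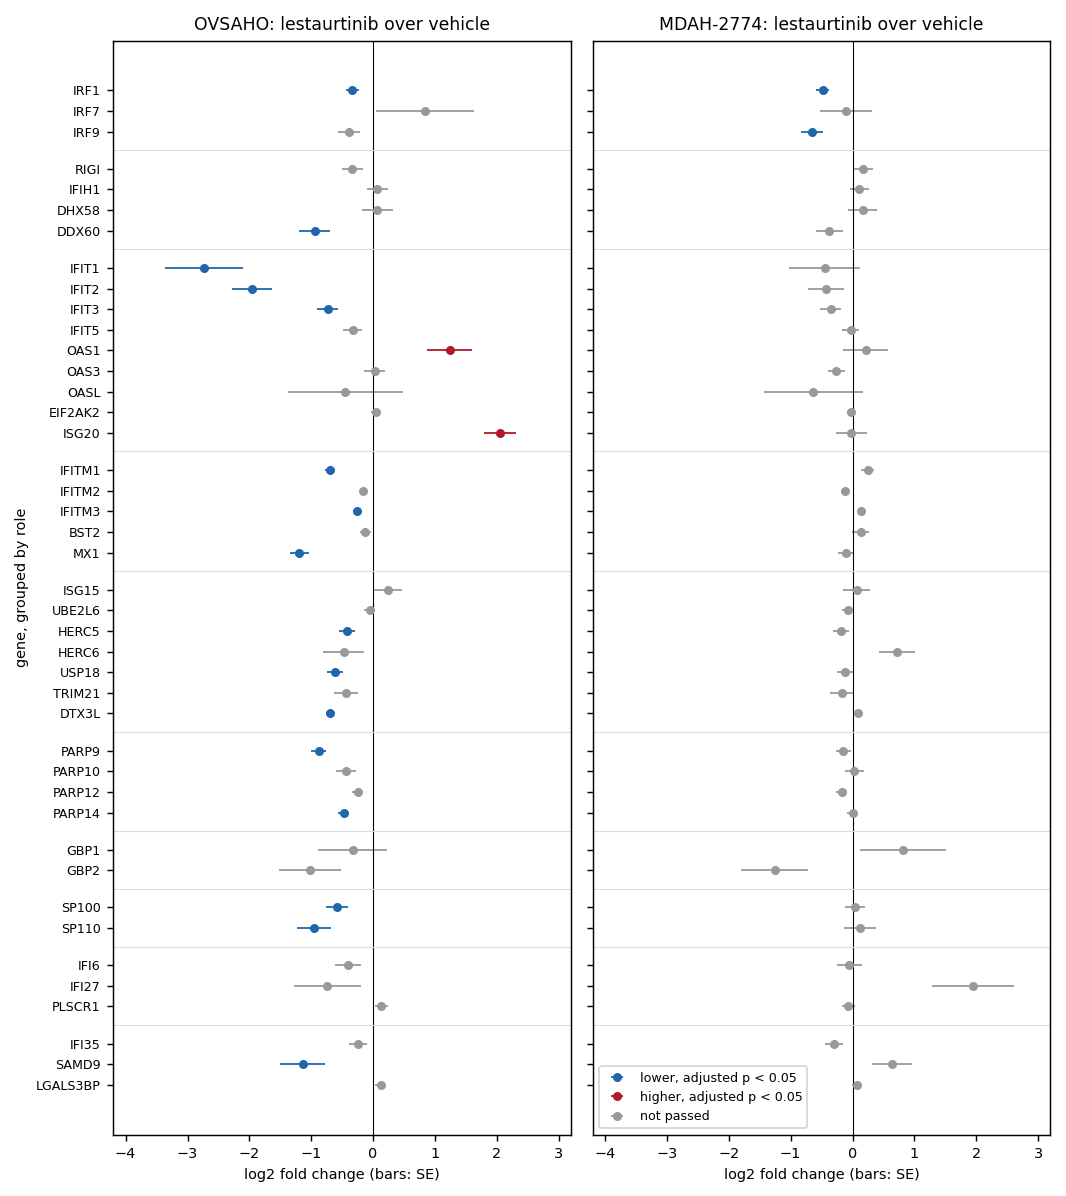
Log2 fold change of each of the 42 interferon-stimulated genes, lestaurtinib over vehicle, in OVSAHO (left) and MDAH-2774 (right), with SE bars and genes grouped by role from transcription factors at the top to other interferon-induced proteins at the bottom. Most points in OVSAHO lie left of 0, with 16 passing the threshold as lower and 2 as higher, while in MDAH-2774 2 pass as lower.

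Counts by role in this and the following paragraphs stand beside 9.19% higher and 6.54% lower over all tested genes in OVSAHO. In MDAH-2774 these shares were 8.08% higher and 9.05% lower (edgeR adjusted p under 0.05). Transcription factors came first in the pathway. IRF1, a factor that is itself induced through GAS and switches on further interferon genes (chr5:132481609-132490777 on hg38, minus strand), had 35.5, 27.7 and 30.4 CPM in treated OVSAHO libraries, against 42.5, 39.1 and 36.3 CPM in vehicle. It had 27.0, 26.7 and 31.8 CPM in treated MDAH-2774 libraries, against 38.8, 39.8 and 41.1 CPM in vehicle. All treated libraries of each line lay below all vehicle libraries of that line. The log2 fold change was -0.33 ± 0.11 in OVSAHO (SE, edgeR adjusted p = 0.0436, 1.26-fold lower) and -0.49 ± 0.11 in MDAH-2774 (edgeR adjusted p = 0.00429, 1.40-fold lower). The OVSAHO call was lost without any 1 of 7 libraries, at edgeR adjusted p of 0.0512 without vehicle MDAH-2774 replicate 2, 0.0594 and 0.0578 without treated MDAH-2774 replicate 1 and 2, 0.133 and 0.0955 without treated OVSAHO replicate 2 and 3, and 0.106 and 0.0805 without vehicle OVSAHO replicate 1 and 2.

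IRF9, the DNA-binding subunit of the type I complex (chr14:24161213-24166565, plus strand), had 12.9, 13.5 and 10.5 CPM in treated MDAH-2774 libraries, against 16.6, 20.8 and 20.5 CPM in vehicle. The groups did not overlap, and IRF9 fell 1.57-fold (log2 fold change -0.65 ± 0.18, edgeR adjusted p = 0.017). The call was lost without treated MDAH-2774 replicate 3 (edgeR adjusted p = 0.0891) and without vehicle MDAH-2774 replicate 2 (0.0613) or 3 (0.0526). In OVSAHO the libraries overlapped, at 14.3, 12.3 and 11.7 CPM treated, against 16.5, 21.0 and 12.4 CPM in vehicle, and the log2 fold change of -0.39 ± 0.18 did not pass (edgeR adjusted p = 0.164), but it was -0.59 without vehicle OVSAHO replicate 3 (edgeR adjusted p = 0.0318). Of the 50-base stretches of IRF9, 43.6% also occur in another annotated gene, AL136295.5, so its counts are uncertain. IRF7, the factor that amplifies type I interferon production, had raw counts of 10, 5 and 6 in treated OVSAHO libraries, against 16, 0 and 0 in vehicle. It did not pass (edgeR adjusted p = 0.527), and passed without vehicle OVSAHO replicate 1 (0.00247), where both vehicle libraries left are at 0 and no fold is given. In MDAH-2774 it had 7.95, 9.21 and 8.38 CPM treated, against 8.37, 8.71 and 10.3 CPM in vehicle, which overlapped.

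Of the RNA sensors and their partners, 1 of 4 passed in OVSAHO. DDX60, a helicase that acts alongside RIG-I, had 1.01, 1.40 and 1.47 CPM in treated OVSAHO libraries, against 3.08, 2.32 and 2.06 CPM in vehicle, and fell 1.92-fold (log2 fold change -0.94 ± 0.25, edgeR adjusted p = 0.0176). Its call was lost without treated OVSAHO replicate 1 (edgeR adjusted p = 0.059) or vehicle OVSAHO replicate 1 (0.0613), and in limma-voom (0.166). RIGI, the sensor of RNA with a free triphosphate end, had a log2 fold change of -0.33 ± 0.17 in OVSAHO and 0.18 ± 0.16 in MDAH-2774. IFIH1, the MDA5 sensor of long double-stranded RNA, and DHX58, the LGP2 regulator of both sensors, lay between 0.07 and 0.16 on the log2 scale in the 2 lines. No sensor passed in MDAH-2774 with edgeR, and with edgeR no sensor there had an unadjusted p under 0.05; DESeq2 and limma-voom called none.

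The IFIT genes hold foreign RNA away from the ribosome and lie side by side on chromosome 10, in the order IFIT2 (chr10:89301949-89309276), IFIT3 (chr10:89327819-89340968), IFIT1 (chr10:89392546-89406487) and IFIT5 (chr10:89414568-89421002). Of these 4, 3 fell in OVSAHO. IFIT1, which binds RNA whose cap lacks methylation, had 0, 1.46 and 1.44 CPM in treated OVSAHO libraries, against 4.74, 5.55 and 9.38 CPM in vehicle. The raw counts behind these values were 0, 45 and 56 in treated libraries, against 251, 228 and 356 in vehicle. The groups did not overlap, the library at 0 stood apart from the other two, and the log2 fold change was -2.74 ± 0.63 (edgeR adjusted p = 0.00668). Without that library, treated OVSAHO replicate 1, the log2 fold change was -2.18 (edgeR adjusted p = 0.00132). IFIT1 had an RPKM above 1 only in vehicle libraries of the 2 lines. It therefore had a row through the groups where it is high, and its fall is in part set by that.

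IFIT2, an RNA-binding partner of IFIT1 and IFIT3, had 0.91, 1.89 and 1.26 CPM in treated OVSAHO libraries, against 5.02, 4.80 and 5.93 CPM in vehicle. It fell 3.88-fold (log2 fold change -1.96 ± 0.32, edgeR adjusted p = 0.000387), with no overlap. IFIT3, the scaffold that stabilises IFIT1, had 9.67, 10.4 and 8.46 CPM in treated OVSAHO libraries, against 16.0, 16.7 and 14.6 CPM in vehicle, and fell 1.66-fold (-0.73 ± 0.17, edgeR adjusted p = 0.00565). IFIT5, which binds RNA with a triphosphate end, had a log2 fold change of -0.33 ± 0.15 (edgeR adjusted p = 0.171), and -0.50 without treated OVSAHO replicate 1 (edgeR adjusted p = 0.0393).

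The same 4 IFIT genes did not pass in MDAH-2774. IFIT1 had 2.35, 3.80 and 3.83 CPM in treated MDAH-2774 libraries, against 3.75, 5.28 and 4.58 CPM in vehicle, which overlapped. IFIT2 had 4.51, 3.16 and 4.06 CPM in treated MDAH-2774 libraries, against 6.32, 4.56 and 4.93 CPM in vehicle. IFIT3 had 4.92, 5.05 and 5.52 CPM in treated MDAH-2774 libraries, against 7.47, 6.36 and 5.92 CPM in vehicle. For IFIT2 and IFIT3 every treated library lay below every vehicle library, with log2 fold changes of -0.43 ± 0.29 (edgeR adjusted p = 0.366) and -0.35 ± 0.17 (0.178).

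Both genes that rose in OVSAHO act on RNA. ISG20, an exonuclease that degrades RNA (chr15:88635622-88656344), had 10.9, 9.95 and 12.8 CPM in treated OVSAHO libraries, against 3.15, 1.90 and 3.06 CPM in vehicle. It rose 4.14-fold (log2 fold change 2.05 ± 0.26, edgeR adjusted p = 3.5e-05), with no overlap. In MDAH-2774 it had 5.70, 4.57 and 4.68 CPM treated, against 3.95, 5.02 and 6.17 CPM in vehicle, which overlapped (log2 fold change -0.02 ± 0.25). OAS1, which makes the oligoadenylates that activate RNase L, had 5.26, 5.88 and 5.62 CPM in treated OVSAHO libraries, against 2.45, 3.56 and 1.08 CPM in vehicle, and rose 2.36-fold (log2 fold change 1.24 ± 0.37, edgeR adjusted p = 0.0303). The OAS1 call was lost without treated OVSAHO replicate 1 (edgeR adjusted p = 0.0554), 2 (0.0859) or 3 (0.0842), and without vehicle OVSAHO replicate 1 (0.0649) or 3 (0.0909). OAS3, another synthetase of that family, had a log2 fold change of 0.03 ± 0.17 in OVSAHO and -0.26 ± 0.13 in MDAH-2774 (edgeR adjusted p = 0.95 and 0.211), and the second passed without treated OVSAHO replicate 1 (0.0426). The kinase PKR, encoded by EIF2AK2, had 0.05 ± 0.08 in OVSAHO and -0.02 ± 0.08 in MDAH-2774 on the log2 scale. OASL, a relative of OAS1 without its enzyme activity, had -0.45 ± 0.93 and -0.63 ± 0.80 in the same order, on few reads. OASL had an RPKM above 1 only in vehicle MDAH-2774 libraries, so its MDAH-2774 value is in part set by that.

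The genes acting on virus entry, assembly and release included the largest values of the list in OVSAHO, and 3 of 5 fell there. IFITM1, a membrane protein that blocks virus fusion (chr11:313991-315272), had 135, 123 and 131 CPM in treated OVSAHO libraries, against 209, 218 and 203 CPM in vehicle. It fell 1.62-fold (log2 fold change -0.70 ± 0.08, edgeR adjusted p = 1.44e-05). IFITM3, its relative in endosomes (chr11:319673-320914), had 586, 601 and 623 CPM in treated OVSAHO libraries, against 754, 674 and 732 CPM in vehicle, and fell 1.19-fold (-0.26 ± 0.05, edgeR adjusted p = 0.00259). Neither gene overlapped between the groups, while their neighbour IFITM2 had a log2 fold change of -0.16 ± 0.06 that did not pass (edgeR adjusted p = 0.0635) although its groups did not overlap either. IFITM2 passed without vehicle MDAH-2774 replicate 1 (edgeR adjusted p = 0.0486) or 2 (0.0485) and without treated OVSAHO replicate 3 (0.0244). IFITM2 also passed with DESeq2 (adjusted p = 0.021) and limma-voom (adjusted p = 0.035), and in 10 of 22 alternatives in all. Of the 50-base stretches of these genes, 32.0% in IFITM1, 34.1% in IFITM2 and 17.4% in IFITM3 also occur in another gene, mostly within the family, so reads may have been shared among them.

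In MDAH-2774, IFITM1 was low, at 8.52, 6.71 and 7.51 CPM in treated libraries, against 6.47, 5.54 and 7.11 CPM in vehicle. IFITM3 had 234, 235 and 223 CPM in treated MDAH-2774 libraries, against 199, 212 and 216 CPM in vehicle, with no overlap. Both log2 fold changes were above 0, 0.25 ± 0.10 and 0.14 ± 0.05, and neither passed (edgeR adjusted p = 0.112 and 0.0714).

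MX1, a dynamin-like GTPase that traps viral nucleocapsids (chr21:41420329-41459214), had 2.76, 2.86 and 3.40 CPM in treated OVSAHO libraries, against 6.42, 6.77 and 7.48 CPM in vehicle. It fell 2.28-fold (log2 fold change -1.19 ± 0.15, edgeR adjusted p = 2.58e-05), with no overlap. MX1 stood higher in MDAH-2774, at 26.4, 23.9 and 26.0 CPM treated, against 28.9, 24.3 and 29.3 CPM in vehicle, and the groups overlapped there. BST2, the tetherin that holds budding virus at the cell surface (chr19:17402939-17405648), had 706, 690 and 686 CPM in treated OVSAHO libraries, against 796, 699 and 780 CPM in vehicle. These groups overlapped and the log2 fold change was -0.13 ± 0.09 (edgeR adjusted p = 0.377). In MDAH-2774 BST2 had 4.43, 5.94 and 4.36 CPM treated, against 5.24, 4.76 and 3.41 CPM in vehicle.

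**Figure D2:**
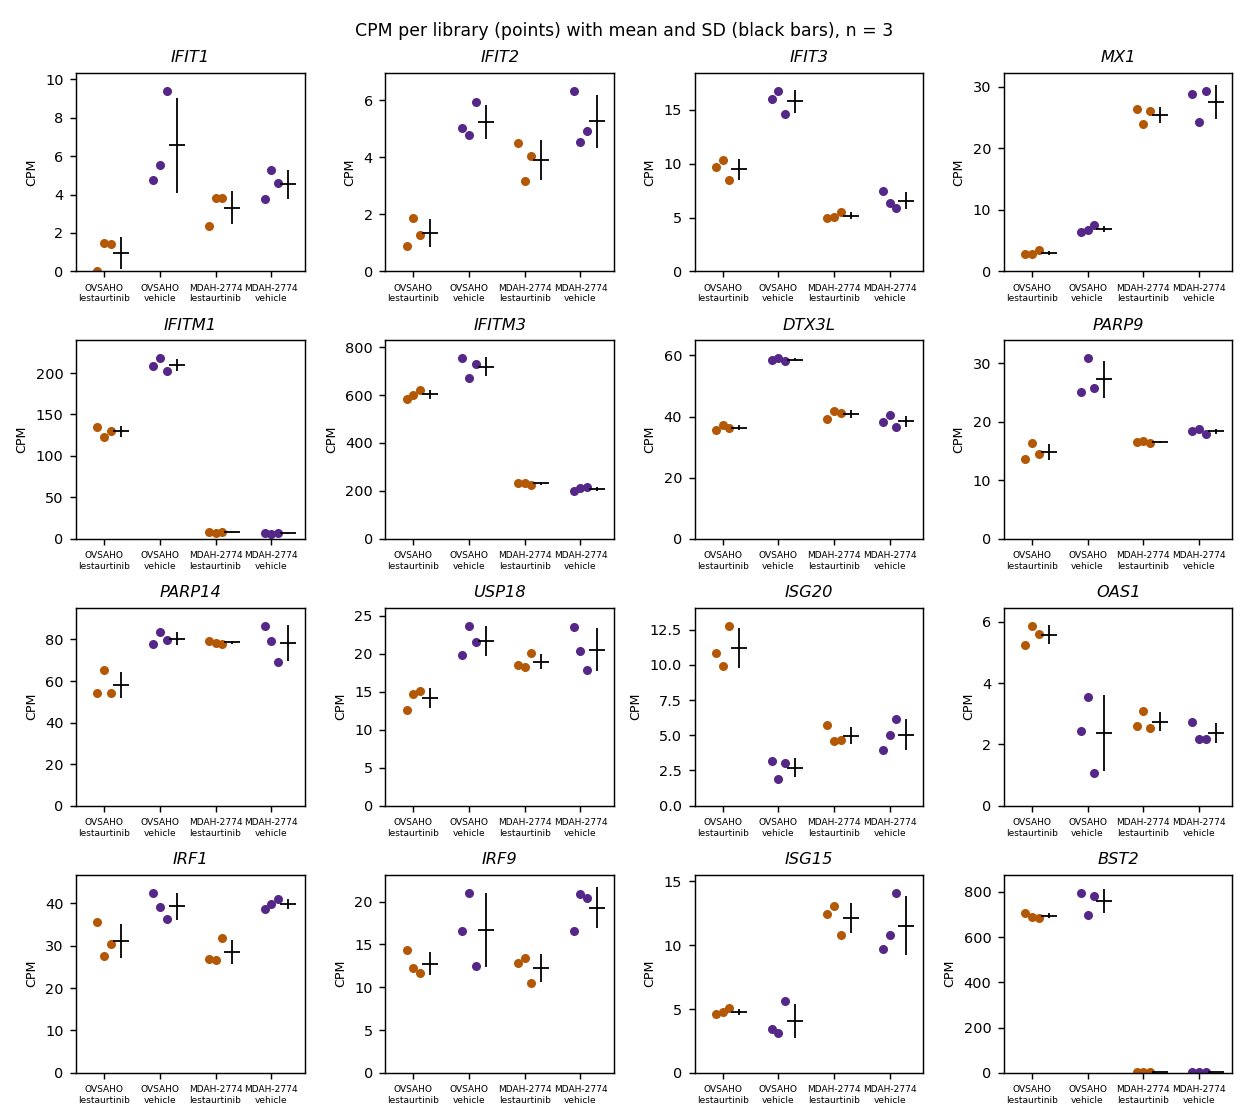
CPM of 16 interferon-stimulated genes in each library, with points for the 3 libraries of treated (orange) and vehicle (purple) cells of each line and black bars for mean and SD. In OVSAHO the treated points lie below the vehicle points for IFIT1, IFIT2, IFIT3, MX1, IFITM1, IFITM3, DTX3L, PARP9, PARP14, USP18 and IRF1 and above them for ISG20 and OAS1.

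The ubiquitin and ISG15 system had 3 of 7 genes lower in OVSAHO, where 6.54% of all tested genes were lower. ISG15, the ubiquitin-like protein itself (chr1:1013467-1014540), had 4.58, 4.75 and 5.05 CPM in treated OVSAHO libraries, against 3.47, 3.14 and 5.61 CPM in vehicle. In MDAH-2774 ISG15 had 12.4, 13.1 and 10.8 CPM treated, against 9.71, 10.8 and 14.1 CPM in vehicle. It overlapped in both lines, with log2 fold changes of 0.24 ± 0.23 in OVSAHO and 0.07 ± 0.22 in MDAH-2774. UBE2L6, the conjugating enzyme for ISG15, had -0.05 ± 0.09 in OVSAHO and -0.08 ± 0.09 in MDAH-2774 on the log2 scale.

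USP18, which removes ISG15 from proteins and dampens the type I receptor (chr22:18149959-18177397), had 12.6, 14.7 and 15.1 CPM in treated OVSAHO libraries, against 19.8, 23.7 and 21.5 CPM in vehicle. It fell 1.53-fold (log2 fold change -0.61 ± 0.13, edgeR adjusted p = 0.00383), with no overlap, and 23.4% of its 50-base stretches also occur in another gene, mostly USP41. In MDAH-2774 USP18 had 18.5, 18.2 and 20.03 CPM treated, against 23.5, 20.3 and 17.8 CPM in vehicle, which overlapped. HERC5, the ligase that attaches ISG15, averaged 16.4 ± 2.01 CPM in treated and 22.0 ± 1.14 CPM in vehicle OVSAHO cells (SD, n = 3 each) and fell 1.34-fold (log2 fold change -0.42 ± 0.13, edgeR adjusted p = 0.0394). The HERC5 call was lost without any 1 of the 3 treated MDAH-2774 libraries (edgeR adjusted p = 0.0575, 0.0551 and 0.0503), of treated OVSAHO replicate 1 (0.114) and 3 (0.0959) and of vehicle OVSAHO replicate 1 (0.0544) and 2 (0.114). HERC6, its close relative, had a log2 fold change of 0.72 ± 0.29 in MDAH-2774 (edgeR adjusted p = 0.11), with treated libraries above vehicle libraries, and passed without vehicle OVSAHO replicate 1 (edgeR adjusted p = 0.0459) or 2 (0.0162). HERC6 also passed there with limma-voom (adjusted p = 0.0026), limma on log2(RPKM + 1) (adjusted p = 0.019) and each line fitted alone (edgeR adjusted p = 0.0012). In OVSAHO its log2 fold change was -0.47 (edgeR adjusted p = 0.365).

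DTX3L and PARP9 encode partner proteins, a ubiquitin ligase and an ADP-ribosyltransferase family member, and share the promoter stretch shown above. DTX3L (chr3:122564338-122575203, plus strand) had 35.5, 37.1 and 36.2 CPM in treated OVSAHO libraries, against 58.6, 59.0 and 58.1 CPM in vehicle. Its libraries were tight within each group, and it fell 1.62-fold (log2 fold change -0.69 ± 0.08, edgeR adjusted p = 7.1e-06). PARP9 (chr3:122527910-122564676, minus strand) had 13.6, 16.3 and 14.4 CPM in treated OVSAHO libraries, against 25.1, 30.8 and 25.7 CPM in vehicle, and fell 1.84-fold (-0.88 ± 0.12, edgeR adjusted p = 6.14e-05). The exons of the 2 genes overlap by 185 bases on opposite strands, which is 3.21% of the exon length of DTX3L and 2.06% of that of PARP9, and the sources used here do not say whether reads were counted by strand. In MDAH-2774 DTX3L had 39.2, 41.8 and 41.2 CPM treated, against 38.2, 40.4 and 36.7 CPM in vehicle, and overlapped. PARP9 there had 16.5, 16.7 and 16.4 CPM treated, against 18.3, 18.8 and 17.8 CPM in vehicle, below without overlap but not passing (log2 fold change -0.15 ± 0.12).

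PARP14, a mono-ADP-ribosyltransferase on the same arm of chromosome 3 (chr3:122680763-122730840), had 54.4, 65.2 and 54.3 CPM in treated OVSAHO libraries, against 77.6, 83.8 and 79.7 CPM in vehicle. It fell 1.39-fold (log2 fold change -0.47 ± 0.09, edgeR adjusted p = 0.00127). In MDAH-2774 it overlapped, at 79.5, 78.3 and 77.9 CPM treated, against 86.7, 79.1 and 69.2 CPM in vehicle. With PARP9, 2 of the 4 ADP-ribosyltransferase genes fell in OVSAHO. PARP10 and PARP12, which also add single ADP-ribose units, had log2 fold changes of -0.44 ± 0.16 and -0.25 ± 0.09 in OVSAHO and did not pass (edgeR adjusted p = 0.0748 and 0.079). PARP10 passed without treated OVSAHO replicate 3 (edgeR adjusted p = 0.0468) or vehicle OVSAHO replicate 2 (0.0251), and PARP12 without vehicle OVSAHO replicate 1 (0.0188).

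Both nuclear body genes fell in OVSAHO, and both calls hung on single libraries. SP100, a scaffold of PML nuclear bodies, averaged 9.84 ± 2.63 CPM in treated and 14.8 ± 3.32 CPM in vehicle OVSAHO cells, with overlap (SD, n = 3 each, log2 fold change -0.58 ± 0.17, edgeR adjusted p = 0.0309). SP110, its relative, averaged 2.50 ± 0.59 CPM in treated and 4.85 ± 0.30 CPM in vehicle OVSAHO cells without overlap (log2 fold change -0.96 ± 0.28, edgeR adjusted p = 0.0285). SP100 was lost without treated OVSAHO replicate 1 (edgeR adjusted p = 0.105) or 2 (0.117) or vehicle OVSAHO replicate 1 (0.0513) or 2 (0.145), and SP110 without treated OVSAHO replicate 2 (0.0775) or 3 (0.0981) or vehicle OVSAHO replicate 2 (0.0665). In MDAH-2774 the 2 genes had log2 fold changes of 0.04 ± 0.16 and 0.11 ± 0.26 and did not pass.

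SAMD9, a protein that restrains translation and growth, had 1.14, 2.02 and 0.52 CPM in treated OVSAHO libraries, against 3.04, 2.88 and 2.002 CPM in vehicle, with overlap. It fell 2.20-fold (log2 fold change -1.13 ± 0.37, edgeR adjusted p = 0.0443), a call lost without any 1 of 7 libraries: the 3 treated MDAH-2774 libraries (edgeR adjusted p = 0.0683, 0.0681 and 0.0685), treated OVSAHO replicate 1 (0.0946) and 3 (0.154) and vehicle OVSAHO replicate 1 (0.092) and 2 (0.0984), and with a log2 fold change of -1.73 without treated OVSAHO replicate 2. In MDAH-2774 SAMD9 had 10.8, 11.4 and 11.9 CPM treated, against 7.27, 5.56 and 9.07 CPM in vehicle, above without overlap but not passing (log2 fold change 0.64 ± 0.32, edgeR adjusted p = 0.203). IFI27, a small mitochondrial protein, had 2.47, 1.56 and 2.99 CPM in treated OVSAHO libraries, against 4.06, 3.61 and 4.08 CPM in vehicle, below without overlap and not passing (edgeR adjusted p = 0.397). In MDAH-2774 its raw counts were 42, 32 and 22 in treated libraries, against 9, 0 and 12 in vehicle (log2 fold change 1.95 ± 0.66, edgeR adjusted p = 0.0523), and it passed without vehicle MDAH-2774 replicate 3 (edgeR adjusted p = 0.0342). IFI27 also passed there with DESeq2 (adjusted p = 0.007), and in 6 of 22 alternatives in all.

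The remaining genes did not pass in either line. GBP1 and GBP2, guanylate-binding proteins that attack vacuoles of intracellular pathogens, had log2 fold changes of -0.33 ± 0.56 and -1.02 ± 0.50 in OVSAHO, and 0 to 76 raw counts per MDAH-2774 library. GBP2 had an RPKM above 1 only in vehicle OVSAHO libraries, so its OVSAHO value is in part set by that. GBP1 passed in MDAH-2774 without vehicle MDAH-2774 replicate 1 (2.43, edgeR adjusted p = 0.0481). IFI6, which protects against cell death, had -0.40 ± 0.21 in OVSAHO and -0.05 ± 0.20 in MDAH-2774. PLSCR1, a phospholipid scramblase, IFI35, a partner of NMI, LGALS3BP, a secreted galectin-binding protein, and TRIM21, an antibody receptor and ubiquitin ligase, lay between -0.44 and 0.13 on the log2 scale in OVSAHO. IFI35 passed in both lines without vehicle OVSAHO replicate 3 (log2 fold change -0.44 and edgeR adjusted p = 0.0246 in OVSAHO, -0.31 and 0.0497 in MDAH-2774), and TRIM21 in OVSAHO without treated OVSAHO replicate 2 (-0.69, edgeR adjusted p = 0.042).

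Whether the response itself differed between the lines was tested by the difference of the 2 log2 fold changes, OVSAHO minus MDAH-2774. Of the 42 genes, 9 had a lower and 1 a higher value, where 7.59% of all tested genes were lower, 9.22% higher and 16.8% either (edgeR adjusted p under 0.05). The median difference was -0.28 on the log2 scale, beside -0.005 over all genes. DTX3L differed by -0.78 ± 0.11 (edgeR adjusted p = 9.92e-05) and IFITM1 by -0.94 ± 0.13 (0.000101). MX1 differed by -1.08 ± 0.19 (edgeR adjusted p = 0.00113), IFITM3 by -0.40 ± 0.07 (0.00134), PARP9 by -0.73 ± 0.17 (0.00587) and PARP14 by -0.48 ± 0.12 (0.0136). For these 6 genes a fall in OVSAHO stood beside no call in MDAH-2774.

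ISG20 had the 1 positive difference, 2.07 ± 0.36 (edgeR adjusted p = 0.000794). IFIT2 (-1.52 ± 0.43, edgeR adjusted p = 0.0217), SAMD9 (-1.77 ± 0.49, 0.0195) and IFI27 (-2.69 ± 0.86, 0.0403) differed too. The IFIT2 call was lost without treated MDAH-2774 replicate 1 (edgeR adjusted p = 0.0675) or 3 (0.0526) and the SAMD9 call without treated MDAH-2774 replicate 3 (0.0512). The SAMD9 difference was -2.36 without treated OVSAHO replicate 2, and the IFI27 difference -3.32 without vehicle MDAH-2774 replicate 3. The IFI27 call was lost without any 1 of the 3 treated MDAH-2774 libraries (edgeR adjusted p = 0.103, 0.0739 and 0.0546), of treated OVSAHO replicate 1 (0.0568) and 2 (0.0822) and of the 3 vehicle OVSAHO libraries (0.0649, 0.0596 and 0.0587). Where the OVSAHO fall of IFIT1 was deepest, its difference of -2.29 ± 0.84 did not pass (edgeR adjusted p = 0.0737), but it was -1.73 without treated OVSAHO replicate 1 (0.0247). USP18 did not pass either (-0.49 ± 0.18, edgeR adjusted p = 0.0759). It passed without vehicle MDAH-2774 replicate 1 (edgeR adjusted p = 0.0337), with upper-quartile scaling (0.043) and with limma on log2(RPKM + 1) (limma adjusted p = 0.025) or log2(RPKM + 0.1) (0.028). HERC6 (-1.19, edgeR adjusted p = 0.0753) and SP110 (-1.07, 0.0652) passed with DESeq2 (adjusted p = 0.046 and 0.044), among other alternatives. SP100 (-0.63, edgeR adjusted p = 0.0849) passed without treated (0.0132) or vehicle (0.0259) OVSAHO replicate 3. IRF1 differed by 0.15 ± 0.15, which did not pass.

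**Figure D3:**
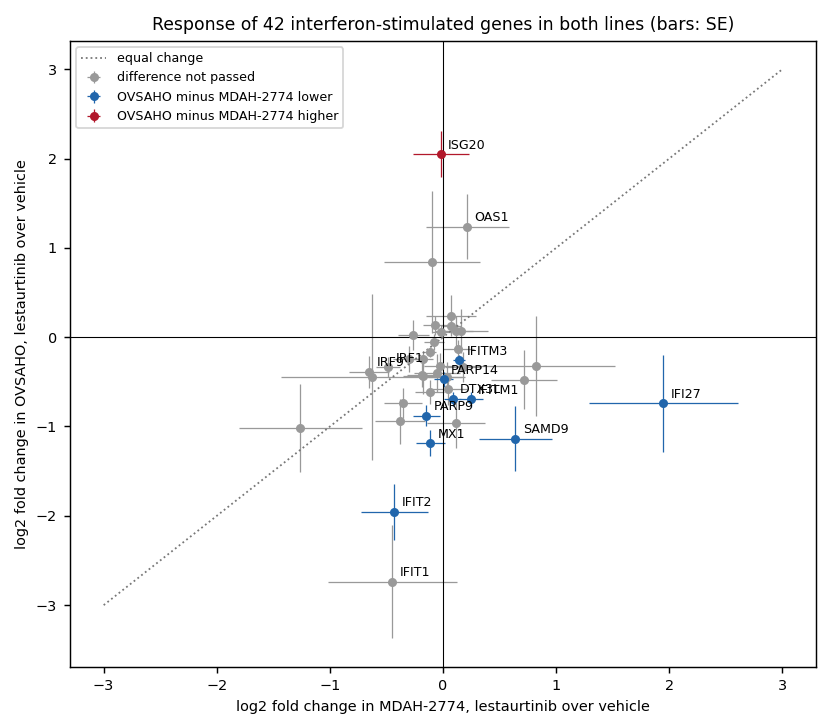
Log2 fold change, lestaurtinib over vehicle, in OVSAHO (vertical) against MDAH-2774 (horizontal) for the 42 genes, with SE bars and a dotted line of equal change. The 9 genes with a lower difference lie below the dotted line, and ISG20, at 2.05 in OVSAHO and -0.02 in MDAH-2774, lies above it.

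The 2 lines started from different levels without drug. Of the 42 genes, 15 were higher and 20 lower in vehicle OVSAHO than in vehicle MDAH-2774 cells, where 38.6% of all tested genes were higher and 38.9% lower (edgeR adjusted p under 0.05), and the 7 that did not pass were IRF1, IRF9, IFIT1, IFIT2, OAS1, USP18 and PARP14. Over all tested genes 77.4% passed in either direction, so the count says nothing about these genes in particular. On the RPKM scale, which takes account of gene length, the highest levels in vehicle OVSAHO were 1015 ± 64.0 RPKM for IFITM3, 701 ± 52.2 for BST2, 290 ± 2.03 for IFITM2, 276 ± 8.28 for IFITM1 and 221 ± 26.2 for LGALS3BP (SD, n = 3). In vehicle MDAH-2774 they were 328 ± 16.5 RPKM for IFITM3, 123 ± 5.95 for IFITM2 and 97.8 ± 11.7 for LGALS3BP, while BST2 had 4.596 ± 0.97 and IFITM1 9.31 ± 1.097 RPKM.

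On the CPM scale, BST2 was 169-fold and IFITM1 32.8-fold higher in vehicle OVSAHO, log2 differences of 7.40 ± 0.13 (edgeR adjusted p = 1.04e-17) and 5.04 ± 0.10 (4.29e-17). OAS3 was lower there by a log2 difference of -4.15 ± 0.16 (edgeR adjusted p = 2.01e-13), at 0.96 ± 0.09 RPKM in vehicle OVSAHO and 19.0 ± 1.13 RPKM in vehicle MDAH-2774. All 4 sensors and sensor partners were lower in vehicle OVSAHO, by log2 differences from -1.38 ± 0.17 for RIGI to -2.54 ± 0.17 for IFIH1, as were MX1 (-1.997 ± 0.14, 3.99-fold lower), ISG15 (-1.50 ± 0.23) and ISG20 (-0.90 ± 0.26). IFIH1, DDX60, IRF7, OASL and SAMD9 had an RPKM above 1 only in MDAH-2774, and GBP1 and GBP2 only in OVSAHO, so these 7 genes had a row through the line where they are high and their difference between the lines is in part set by that. IRF7 had 16, 0 and 0 raw counts in vehicle OVSAHO, against 388, 338 and 449 in vehicle MDAH-2774. The OASL call (-2.40 ± 0.87, edgeR adjusted p = 0.0185) was lost without vehicle MDAH-2774 replicate 1 (0.0668) or vehicle OVSAHO replicate 1 (0.0709).

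**Figure D4:**
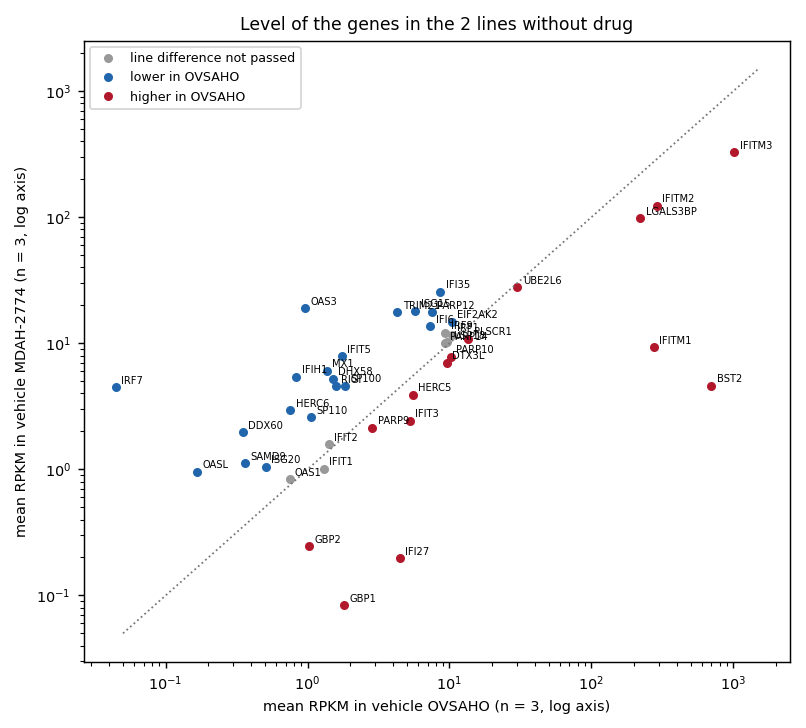
Mean RPKM of each of the 42 genes in vehicle OVSAHO (horizontal) against vehicle MDAH-2774 (vertical), 3 libraries each, on log axes with a dotted line of equal level. BST2, IFITM1, IFI27, GBP1 and GBP2 lie far to the right of the line, and IRF7, OAS3 and IFIH1 far to the left.

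Upstream of these genes, the interferons themselves were out of reach, since none of 10 ligand genes had a row. Counts in the lists below stand beside 9.19% higher and 6.54% lower over all tested genes in OVSAHO, and 8.08% higher and 9.05% lower in MDAH-2774. Of 6 receptor genes tested, 2 fell in MDAH-2774, IFNAR2, the signalling chain of the type I receptor (log2 fold change -0.45 ± 0.14, edgeR adjusted p = 0.036), and IL10RB, a chain of the type III receptor (-0.48 ± 0.13, 0.017). In OVSAHO 1 rose, IFNGR1, the binding chain of the type II receptor (0.36 ± 0.07, edgeR adjusted p = 0.00245). IFNAR1 had -0.12 ± 0.16 in OVSAHO and 0.12 ± 0.15 in MDAH-2774, and IFNGR2 had -0.11 ± 0.11 and -0.27 ± 0.11 in the same order, none of which passed.

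In the JAK, STAT and IRF list, STAT2 had a log2 fold change of -0.20 ± 0.08 in OVSAHO and 0.11 ± 0.09 in MDAH-2774, and JAK2, a kinase that lestaurtinib blocks, had -0.50 ± 0.32 and 0.36 ± 0.32 in the same order, none of which passed. JAK1 fell in MDAH-2774 (-0.22 ± 0.05, edgeR adjusted p = 0.00236) and had -0.12 ± 0.05 in OVSAHO. STAT3, which carries cytokine signals of the IL-6 family, fell in both lines, with log2 fold changes of -0.38 ± 0.05 in OVSAHO and -0.16 ± 0.05 in MDAH-2774 (edgeR adjusted p = 5.76e-05 and 0.0349). TYK2, the kinase of the type I receptor, and IRF3, the factor downstream of the RNA sensors, rose in OVSAHO (0.30 ± 0.08 and 0.44 ± 0.10, edgeR adjusted p = 0.0198 and 0.00484).

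Of 12 nucleic acid sensor and adaptor genes outside the list, TICAM1, IKBKE and TRAF3 rose and TRIM25, a ligase that activates RIG-I, fell in OVSAHO (-0.36 ± 0.07, edgeR adjusted p = 0.002). In MDAH-2774 edgeR called none of the 12, none had an unadjusted p under 0.05, and DESeq2 and limma-voom called none. Of 10 negative regulators, 4 fell in MDAH-2774, SOCS3, the feedback inhibitor of JAK kinases (-0.85 ± 0.11, edgeR adjusted p = 5.22e-05), PIAS3, PTPN1 and PTPN11. In OVSAHO edgeR called none of these 10, with 1 above at an unadjusted p under 0.05, and DESeq2 and limma-voom called none, and SOCS3 had -0.14 ± 0.11. SOCS1 had no row. The difference between the lines passed as higher for the same 4 regulators, where 9.22% of all tested genes had a higher difference. For SOCS3 it was 0.71 ± 0.16 (edgeR adjusted p = 0.00507).

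A list of 65 further interferon-induced genes, of which 53 were tested, had 8 higher and 13 lower in OVSAHO and 4 higher and 5 lower in MDAH-2774, with medians of -0.12 in OVSAHO and -0.02 in MDAH-2774. Over all tested genes 9.19% were higher and 6.54% lower in OVSAHO, and 8.08% higher and 9.05% lower in MDAH-2774, so the MDAH-2774 counts are near the background and say nothing about the list. RNF213, a giant ubiquitin ligase, averaged 114 CPM in treated and 165 CPM in vehicle OVSAHO cells (log2 fold change -0.54 ± 0.06, edgeR adjusted p = 6.14e-06). TXNIP, an inhibitor of thioredoxin, fell there as well (-0.85 ± 0.05, edgeR adjusted p = 1.29e-08). WARS1, a tRNA synthetase induced by type II interferon, rose in both lines (0.56 ± 0.06 in OVSAHO and 0.57 ± 0.05 in MDAH-2774, edgeR adjusted p = 2.24e-06 and 2.11e-06), and TENT5A rose in OVSAHO (1.20 ± 0.11, edgeR adjusted p = 8.16e-07).

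Class I antigen presentation, which interferon also raises, moved in both directions in OVSAHO, with 6 of 18 genes higher and 4 lower, and had 3 lower in MDAH-2774, where 9.19% of all tested genes were higher and 6.54% lower in OVSAHO and 9.05% lower in MDAH-2774. TAP1, a subunit of the peptide transporter, averaged 52.1 CPM in treated and 25.1 CPM in vehicle OVSAHO cells and rose (log2 fold change 1.06 ± 0.08, edgeR adjusted p = 9.48e-08), as did PSMB9, the neighbouring immunoproteasome gene (0.94 ± 0.12, 3.84e-05), and TAP2 (0.43 ± 0.07, 0.000218). The peptide trimming enzymes ERAP1 and ERAP2 fell (-0.54 ± 0.07 and -0.65 ± 0.07, edgeR adjusted p = 5.86e-05 and 1.01e-05). Genes in more than 1 list include STAT2, STAT3, IRF2, ADAR, IFI16, TRIM25, TAP1, PSMB8, PSMB9 and B2M.

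The inflammatory NF-kB targets moved apart in the 2 lines. In OVSAHO 13 of 18 rose, with a median log2 fold change of 0.75, and in MDAH-2774 12 fell and 1 rose, with a median of -0.77. The difference passed for 16 of the 18, all higher in OVSAHO, where 9.22% of all tested genes had a higher difference. CXCL8, a neutrophil chemokine, was among them, at 1.49 ± 0.27 in OVSAHO and -1.84 ± 0.17 in MDAH-2774 (edgeR adjusted p of the difference = 2.16e-06). TNF had 0.80 ± 0.12 in OVSAHO and -1.03 ± 0.11 in MDAH-2774 (edgeR adjusted p of the difference = 9.44e-07). In OVSAHO the median of the 42 interferon-stimulated genes, -0.39, and that of the NF-kB targets, 0.75, lay on opposite sides of 0.

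**Figure D5:**
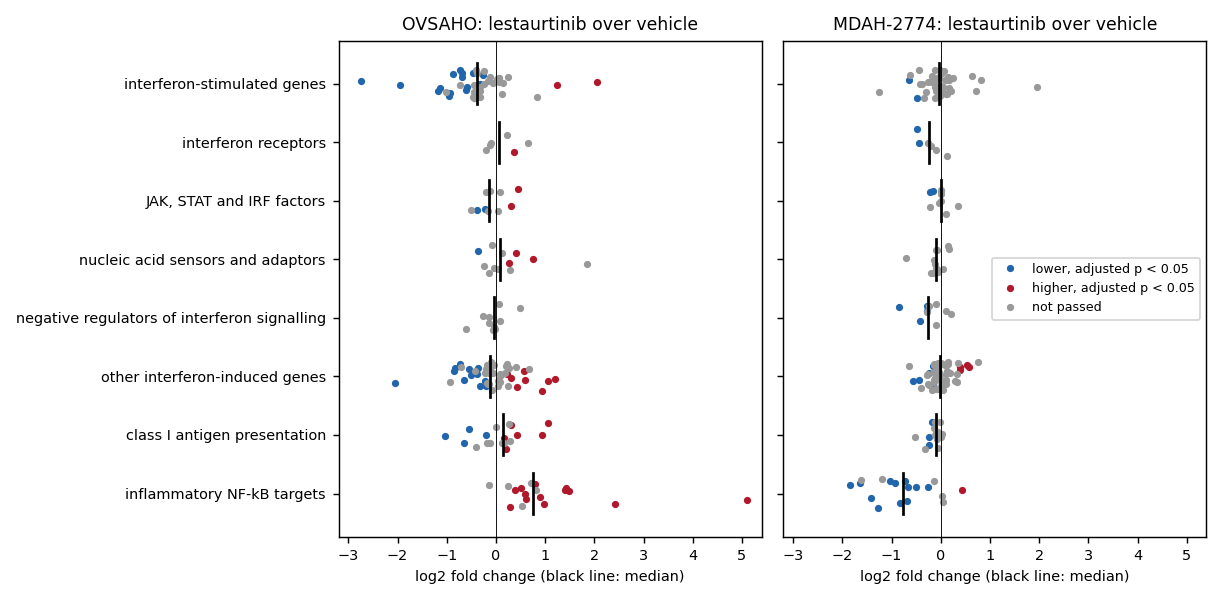
Log2 fold change, lestaurtinib over vehicle, of every tested gene in the interferon-stimulated list and in 7 related lists, in OVSAHO (left) and MDAH-2774 (right), 1 point per gene, blue where lower and red where higher at an adjusted p under 0.05 and grey otherwise, with a black line at each median. The interferon-stimulated genes have medians of -0.39 in OVSAHO and -0.04 in MDAH-2774, and the inflammatory NF-kB targets 0.75 in OVSAHO and -0.77 in MDAH-2774.

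The promoter elements were counted by call. In OVSAHO the ISRE core was present in 11 of the 14 matched genes that fell, in 13 of the 18 that did not pass and in 1 of the 2 that rose. The GAS was present there in 6 of the 14 that fell, 5 of the 18 that did not pass and 1 of the 2 that rose. ISG15 and BST2, whose promoters hold 2 overlapping ISRE cores each as printed above, did not pass, while DTX3L and PARP9, which share a single one, fell. HERC5, with 3 cores in a window, and IFIT1, IFIT3, IFITM1, IFITM3 and DDX60, with 2, fell as well. IFIH1, IFI6 and IFIT5, with 3, and IFI27, OAS3 and TRIM21, with 2, did not pass. In MDAH-2774 the 2 genes that fell, IRF1 and IRF9, had the GAS and no ISRE core in these windows, while of the 32 that did not pass 10 had the GAS and 25 the ISRE core. These are counts of letters in 300 bases or fewer per start and carry no test.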

How the data were processed

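RNA from 12 libraries was sequenced from a stranded mRNA preparation, per the labels' protocols. STAR 2.7.3a, featureCounts 2.8.2 and hg38 are named in the submitters' processing notes, and the authors deposited raw counts per gene and RPKM values in 1 table. Counts as deposited were analysed in R 4.3.3 with edgeR 4.0.16 (TMM scaling, filterByExpr with a minimum count of 10, quasi-likelihood test over 4 groups in 1 fit, Benjamini-Hochberg adjustment over 13498 genes, threshold 0.05), and 371 genes were removed by the filter. An SE is the log2 fold change divided by the root of its F statistic. The deposited RPKM values of the authors served to compare levels between genes. DESeq2 1.42.0, limma 3.58.1, 2 other scalings, 2 other filters, a replicate block, fits of each line alone, a size threshold and leaving out each library were alternatives, and the code was tested on simulated data. Figures were drawn with matplotlib 3.10.9 in Python 3.11.15.

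The genes and the related lists were chosen with earlier results of these data known. Values in every library are given for up to 10 genes with the lowest adjusted p in each line, for genes whose response differed between the lines, and for ISG20, IRF1, IRF7, IRF9, MX1, IFIT1, ISG15, IFITM1 and BST2 in any case. Other values per library, and the sequences shown, were chosen after values were seen. Libraries held 32875940 to 55941446 counts, and no 2 replicates agreed within sampling noise (chi-square per degree of freedom 5.774 to 28.58). Samples were grouped by line and treatment from their labels. Same-numbered libraries did not deviate together (correlations from -0.118 to 0.0306, against -0.158 to 0.16 for other pairs). No pairing by number was seen, but with 3 libraries per group the check could miss one. The values of 1 gene of the related lists are left out of the text.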

Additional observations from a re-analysis of the deposited data

Results flagged for a closer look

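For 10 genes the response to lestaurtinib differed between the lines by a test of the difference itself, OVSAHO minus MDAH-2774, on the log2 scale (edgeR adjusted p under 0.05). Among genes of virus entry and assembly these were MX1 (-1.076), IFITM1 (-0.9423) and IFITM3 (-0.3983). DTX3L (-0.7758), PARP9 (-0.7338) and PARP14 (-0.4762) lie close together on chromosome 3. IFIT2 (-1.524), SAMD9 (-1.774) and IFI27 (-2.689) were lower too, and each of these 3 calls was lost without at least 1 single library, as given with their values above. ISG20 (2.067) was higher. IFI27 rests on 0 to 42 raw counts per MDAH-2774 library.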

How the results depend on the processing

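No value of the 42 genes that had passed changed sign under any alternative. Under every alternative other than the threshold on size, 11 of the 18 OVSAHO calls, 1 of the 2 MDAH-2774 calls, 7 of the 10 difference calls and 32 of the 35 calls between vehicle lines were kept. A log2 change of at least 0.5 also removed IFITM3 and PARP14 from the calls in OVSAHO and in the difference, and IRF1 from those in MDAH-2774. The count of the 42 genes higher in MDAH-2774, 0 with edgeR, was 2 with upper-quartile scaling, 1 with at least 1 CPM in 3 libraries, 1 with DESeq2, 2 with limma-voom, 5 with limma on log2(RPKM + 1), 2 with limma on log2(RPKM + 0.1) and 2 with each line fitted alone. The count lower in MDAH-2774, 2 with edgeR, was 4 with limma-voom, 4 with each line alone and 1 with a log2 change of at least 0.5. That size threshold left 550 of 1241 genes higher and 413 of 883 lower in OVSAHO, 516 of 1090 higher and 348 of 1222 lower in MDAH-2774, and 706 of 1244 with a higher difference. Limma on log2(RPKM + 1) gave 1547 genes with a lower difference, against 1024. Causes were not tested, except that the size threshold can only lower a count. The count of the 42 genes lower in OVSAHO, 16 with edgeR, was 18 with DESeq2 and 13 with limma-voom. The count with a lower difference, 9 with edgeR, was 11 with DESeq2 and 10 with limma-voom. In OVSAHO the calls of DDX60, SP100, SP110 and SAMD9 were lost with limma-voom.

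Leaving out each library in turn gave 12 to 18 of the 42 genes lower and 1 to 2 higher in OVSAHO, 1 to 3 lower and 0 to 1 higher in MDAH-2774, 6 to 11 lower and 1 to 2 higher in the difference, and 19 to 21 lower and 15 higher between vehicle lines. Over all genes it gave 746 to 1311 higher and 704 to 968 lower in OVSAHO, 656 to 1118 higher and 807 to 1344 lower in MDAH-2774, 902 to 1222 higher and 720 to 1100 lower in the difference, and 5090 to 5256 higher and 5040 to 5264 lower between vehicle lines. Single libraries moved these by over 1.5 times for OVSAHO higher (746 without treated OVSAHO replicate 3, 799 without vehicle OVSAHO replicate 3) and for MDAH-2774 higher (681 and 656 without treated MDAH-2774 replicate 1 and 2) and lower (807 without treated MDAH-2774 replicate 2).

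With the replicate number as a block, 12 of the 42 genes were lower and 2 higher in OVSAHO, 2 lower and 0 higher in MDAH-2774, 9 lower and 1 higher in the difference and 19 lower and 15 higher between vehicle lines. IRF1, HERC5, SP100 and SAMD9 in OVSAHO (edgeR adjusted p = 0.0589, 0.0611, 0.0609 and 0.0672) and OASL between vehicle lines (0.0502) were the calls lost with the block.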

Other observations

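Outside the 42 genes, 372 tested genes had an ISRE core in their promoter window. Of these, 9.41% were lower and 7.80% higher with lestaurtinib in OVSAHO, and 10.5% lower and 5.65% higher in MDAH-2774, where all tested genes had 6.54% lower and 9.19% higher in OVSAHO and 9.05% lower and 8.08% higher in MDAH-2774. The summed level of the 42 genes was 2662 to 2770 CPM in treated and 2919 to 3188 CPM in vehicle OVSAHO libraries, without overlap, and 1373 to 1410 CPM in treated and 1378 to 1473 CPM in vehicle MDAH-2774 libraries, with overlap. A few abundant genes, IFITM3, BST2 and LGALS3BP among them, make up most of this sum in OVSAHO.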
